A study of Mus musculus with 6 samples.

Results

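Interferon response genes were examined in fibroblasts of the mouse heart, cells that build connective tissue, by the genotype of Acta2, which encodes α-smooth muscle actin. The set holds 47 named genes, chosen by symbol from the 25746 genes of the expression table, and leaves out the Ifit genes that lie close to Acta2. RNA-seq covered 2 libraries labelled Acta2 knockout (KO) and 2 labelled wild type (WT), and ATAC-seq, which maps open chromatin, covered 1 library of each. One protocol in the labels takes cardiac fibroblasts of Acta2fl/fl and WT animals, gives both genotypes Cre from an adenovirus (Adeno-Cre) and then treats them with TGFβ for 2 days. Another describes eGFP+ cells sorted by a Tcf21 lineage trace from hearts with a ligated left coronary artery. In that protocol tamoxifen, which activates MerCreMer, was injected on 5 days at a daily 75 mg per kg, beginning at an age of 6 weeks. Infarction followed at 9 weeks, with a further tamoxifen course lasting until 5 days after it. The labels of every library carry both protocols and do not say which applies. They also do not say whether libraries of a genotype came from separate animals or cultures, so the p-values measure only the spread between these libraries, which may be technical. No library is labelled as lacking all of TGFβ, adenovirus and infarction, so only genotypes could be compared. Whether all libraries went through the same protocol is not stated.

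Type I interferon signals through a receptor made of Ifnar1 and Ifnar2, whose kinases phosphorylate STAT proteins. Stat2 and Irf9 are parts of the complex ISGF3, which binds interferon-stimulated response elements in promoters and switches on antiviral genes. The induced products include sensors of viral RNA and DNA, effectors that block viral replication, and parts of the machinery that loads peptides on MHC class I, and in fibroblasts the pathway is known both as a defence and as a low tonic signal.

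Acta2 stood at 256 and 266 normalised CPM (estimated counts scaled to a common library size) in KO libraries, against 2186 and 2200 CPM in WT libraries. The RNA libraries held 10864365 to 11370115 estimated counts in KO and 8429166 to 9096811 in WT. Genes were called at an edgeR adjusted p under 0.05. Among all tested genes, 18.3% were called higher and 17.4% lower in KO, which is the background for the marker counts here. The 8 fibroblast markers summed to 3099 and 3114 CPM in KO libraries and to 4344 and 4257 CPM in WT libraries, with 1 higher and 7 lower in KO. Macrophage and leukocyte markers summed to 190.1 and 190.2 CPM in KO libraries, against 111.5 and 105.8 CPM in WT libraries. Of the 11 tested of 14 listed, 7 were higher in KO and 0 lower. Fcgr1 was at 0 throughout, and Ptprc and Mrc1, with at most 11 and 5 estimated counts in a library, were not tested. The largest parts of the sum were Lyz2 and Cd68. Lyz2 had 93.8 and 97.3 CPM in KO libraries, against 52.8 and 48.8 CPM in WT libraries. Endothelial markers summed to 146.6 and 159.2 CPM in KO libraries, against 117.4 and 110.7 CPM in WT libraries, with 7 of 10 higher and 1 lower. Of 7 T and NK cell markers, 6 were at 0 in all libraries. Of 4 listed plasmacytoid dendritic cell markers, Siglech was at 0 in all libraries and Ly6d, with 6 to 10 estimated counts, was not tested. The remaining 2 were expressed: Tcf4 was lower in KO (log2 fold change -0.33) and Bst2, itself a member, was not called. In bulk libraries, fewer cells of a type and less RNA per cell cannot be told apart.

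Most interferon response genes that changed were lower in KO, while the 3 antigen presentation members that changed were higher. Of the 46 tested members, 21 were lower in KO and 7 higher, against 17.4% lower and 18.3% higher among all 12192 tested genes (edgeR quasi-likelihood test, adjusted p under 0.05). In both directions together 35.7% of all tested genes passed. The members' median log2 fold change was -0.17, beside 0.0014 for all tested genes. The changes were small: the largest fall was Ddx60 at -1.13 and the largest rise Nlrc5 at 1.53, and the other called members lay between -0.74 and 0.54. The fitted biological coefficient of variation (BCV), the relative spread between replicates, was 0.0311, and with an assumed BCV of 0.2 Nlrc5 was the only member to pass (1 higher and 0 lower, against 1.83% and 1.44% of all tested genes, 3.26% in all). With an assumed BCV of 0.1, 3 members were higher and 8 lower, against 8.42% and 6.18% of all tested genes (14.6% in all). With DESeq2, 5 were higher and 16 lower, against 7.89% and 8.99% of all tested genes (16.9% in all). Mx1, a dynamin-like GTPase that blocks viral nucleoproteins, was the member not tested, with 6.03 and 5 estimated counts in KO libraries and 4 and 8 in WT libraries.

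**Figure D1:**
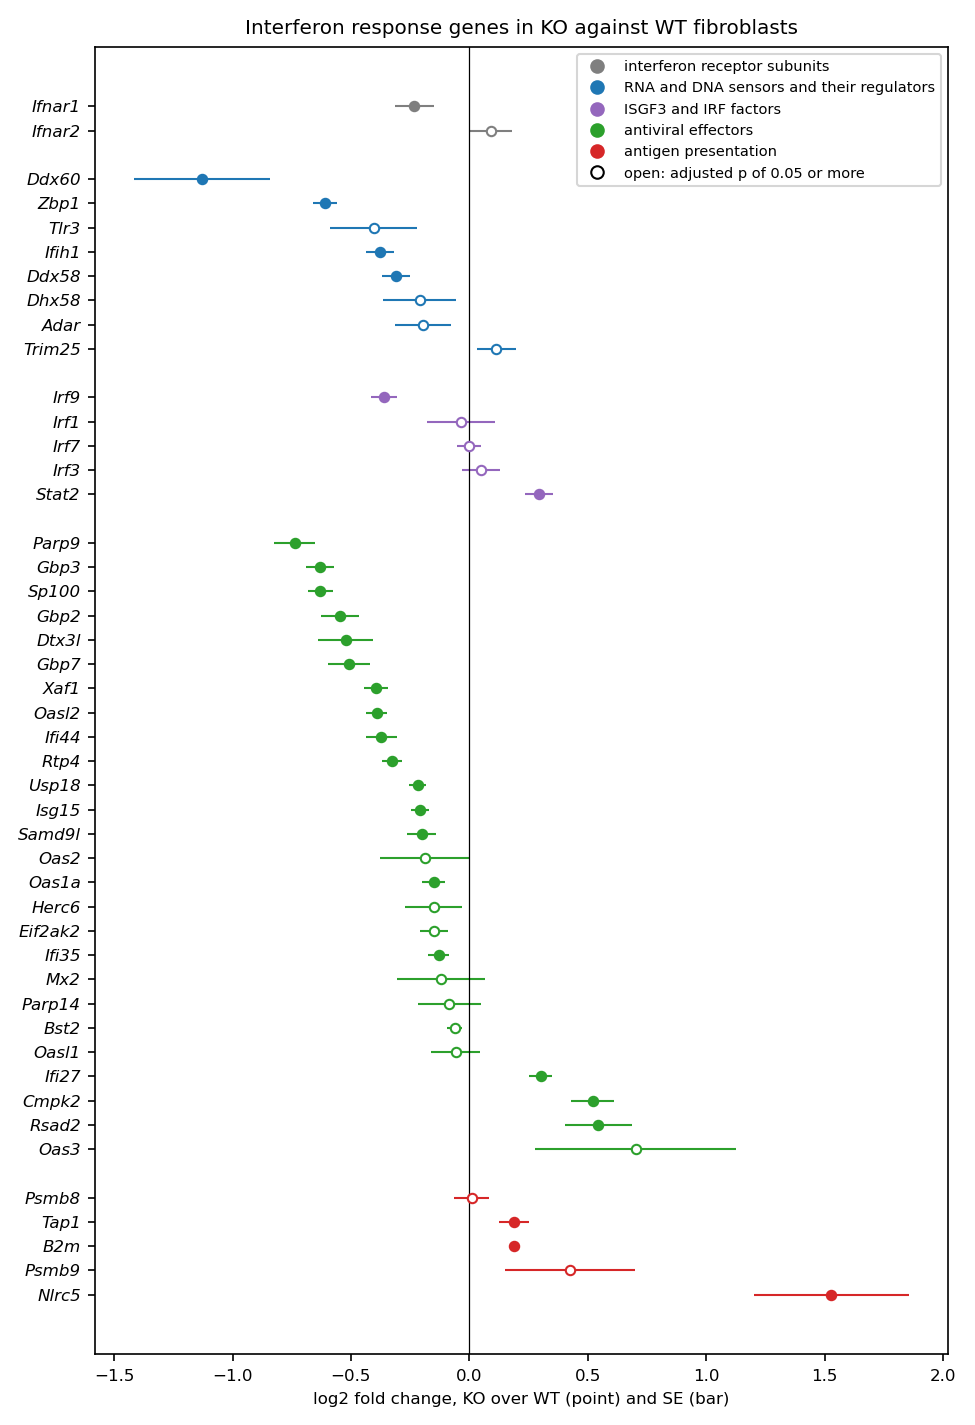
Log2 fold change of KO over WT for the 46 tested members, ordered by role (points), with the SE of each (bars) on the x axis. Filled points passed an adjusted p of 0.05 by edgeR and open points did not. Filled points lie left of 0 for sensors and their regulators, mostly left for antiviral effectors and right for antigen presentation.

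The members' median level lay above that of all tested genes in both genotypes, with single members on either side. Per kilobase of exon, the members' median level was 11 CPM in KO and 12.3 CPM in WT, beside 4.35 CPM in KO and 4.31 CPM in WT for all tested genes. In both genotypes the order was led by B2m, the light chain of MHC class I, at 3176 CPM per kilobase in KO and 2784 in WT. Bst2, or tetherin, which holds budding virions at the cell surface, came next at 800.5 CPM per kilobase in KO and 835.4 in WT. Isg15, a ubiquitin-like modifier, followed at 442.8 in KO and 512.4 in WT, and Usp18, which removes it, at 162.4 in KO and 189.0 in WT. The interferons themselves were close to absent. Of 10 listed ligand genes 8 were at 0 in every library, Ifnb1 had 1 and 0 estimated counts in KO libraries and 0 and 1 in WT libraries, and Ifna4 had 0 and 0 in KO libraries and 0 and 4 in WT libraries.

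**Figure D2:**
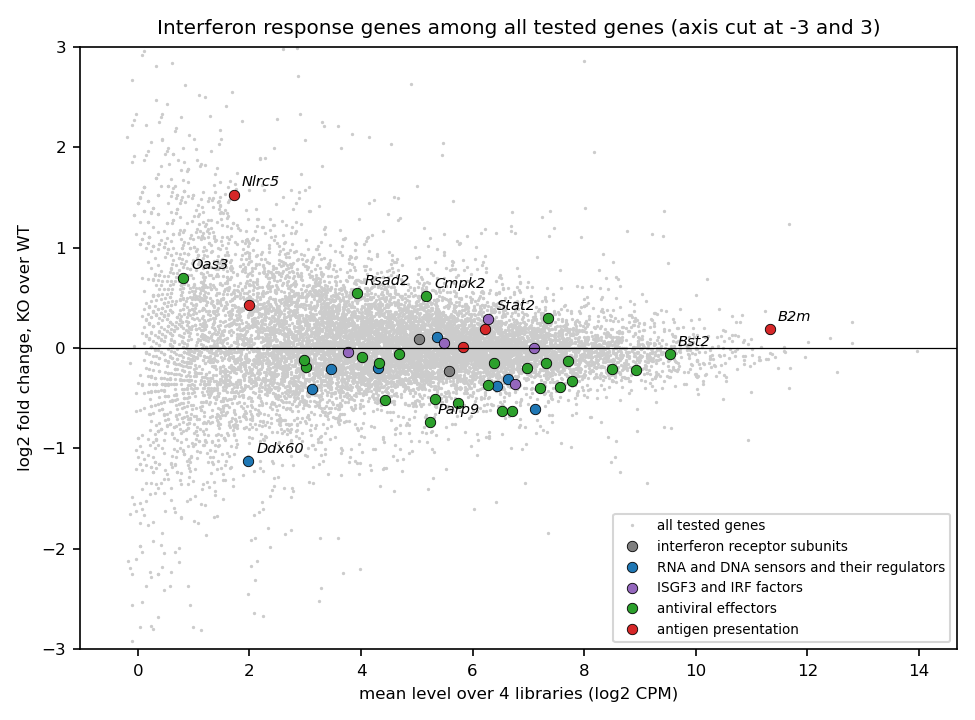
Log2 fold change of KO over WT (y axis) against the mean level over the 4 RNA libraries in log2 CPM (x axis), with all tested genes in grey and members coloured by role. Members span the range of levels from Oas3 to B2m, and Nlrc5 and Ddx60, the members with the largest called changes, sit among the weakly expressed genes.

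Promoter sequences were searched for the element that ISGF3 binds. RefSeq promoter windows of GRCm38.p6, from 250 bases before to 50 after the RefSeq start, were found for 36 members. The core of the interferon-stimulated response element, searched on both strands as a pair of GAAA with 2 free bases between them, with overlapping matches allowed, occurred in 14 of 36 members (38.9%) and in 3.99% of 27025 genes with such a window. A stricter form, with C fixed as the first of the free bases, occurred in 9 members (25%) and in 0.792% of all genes. The γ-activated site, searched as TTCNNNGAA, occurred in 10 members (27.8%) and in 9.55% of all genes. A match is a description of letters and not of binding. By call, the response element core was present in 3 of 5 members higher in KO, in 8 of 17 lower and in 3 of 14 not called. The stretches below are from members higher in KO (Rsad2, Stat2 and B2m), lower in KO (the others except the last) and not called (Bst2), on the strand of the gene, with the core in capitals. Cores that overlap run together, and TTTC in place of GAAA marks a core on the opposite strand.
Rsad2 (chr12:26456553-26456582, minus strand): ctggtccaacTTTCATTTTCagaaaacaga
Stat2 (chr10:128270266-128270295, plus strand): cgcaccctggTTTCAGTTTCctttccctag
B2m (chr2:122147538-122147567, plus strand): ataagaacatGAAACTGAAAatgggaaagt
Ddx60 (chr8:61928024-61928053, plus strand): gtgatgaatgGAAACCGAAActtaaagctt
Ddx60 (chr8:61928058-61928087, plus strand): gagcagaagaGAAACCGAAActatccttca
Gbp3 (chr3:142559989-142560024, plus strand): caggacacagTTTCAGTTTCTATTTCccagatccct
Gbp2 (chr3:142620594-142620623, plus strand): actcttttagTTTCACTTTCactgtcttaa
Gbp7 (chr3:142530273-142530302, plus strand): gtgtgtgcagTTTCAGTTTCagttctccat
Ifih1 (chr2:62646206-62646233, minus strand): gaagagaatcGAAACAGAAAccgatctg
Ddx58 (chr4:40239804-40239833, minus strand): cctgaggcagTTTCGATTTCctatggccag
Isg15 (chr4:156200865-156200906, minus strand): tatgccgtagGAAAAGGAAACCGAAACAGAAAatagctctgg
Bst2 (chr8:71537577-71537612, minus strand): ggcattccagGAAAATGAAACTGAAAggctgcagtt

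Positions are counted from the start that RefSeq gives as 0, which for some genes, Gbp2, Stat2 and Isg15 among them, differs from the gene start in the expression table. By the table's start, the core of Gbp2 lies inside the gene. The cores of Gbp2, Gbp3 and Gbp7 began at -59, -45 and -53 and all lay on the opposite strand, and Gbp3 had an overlapping core at -39. Isg15 held 3 overlapping cores, at -78, -72 and -66. The core of Stat2 began farther upstream, at -222, and that of B2m at -139. In Ifih1 and Ddx58 the core lay after the start, at 32 and 2, where it falls in the transcribed 5′ end. The whole windows of Isg15, lower in KO, and of Stat2, higher in KO, show how the same kind of core sits in promoters of opposite call.
Isg15 promoter (chr4:156200769-156201068, minus strand): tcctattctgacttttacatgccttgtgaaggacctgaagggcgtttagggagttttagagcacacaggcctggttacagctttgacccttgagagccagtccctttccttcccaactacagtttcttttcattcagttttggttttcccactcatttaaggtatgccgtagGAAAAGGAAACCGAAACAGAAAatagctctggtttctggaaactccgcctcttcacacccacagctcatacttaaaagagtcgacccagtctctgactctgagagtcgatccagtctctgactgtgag
Stat2 promoter (chr10:128270248-128270547, plus strand): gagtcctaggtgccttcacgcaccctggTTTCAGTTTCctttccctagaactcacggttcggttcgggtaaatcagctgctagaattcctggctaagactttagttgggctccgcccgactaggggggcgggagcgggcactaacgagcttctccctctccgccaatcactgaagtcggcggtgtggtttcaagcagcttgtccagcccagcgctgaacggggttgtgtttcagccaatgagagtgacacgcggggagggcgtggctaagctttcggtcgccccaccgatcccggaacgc

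**Figure D3:**
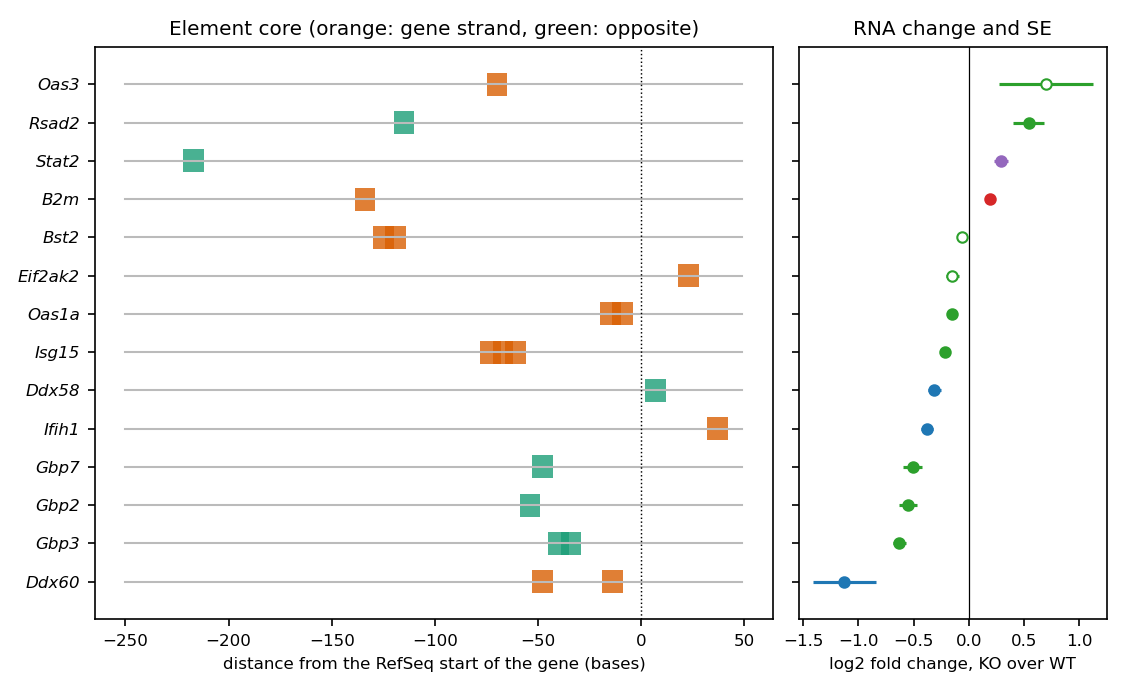
Left, position of each response element core (coloured blocks) in bases from the RefSeq start of the 14 members that hold it. Right, the log2 fold change of KO over WT in RNA with its SE for the same members, open where the adjusted p was 0.05 or more. Cores lie mostly within 140 bases before the start, both in members higher and in members lower in KO.

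The receptor subunits differed little. Ifnar1 had 40.3 and 47.5 CPM in KO libraries, against 52.2 and 50.9 CPM in WT libraries. It was lower in KO by a log2 fold change of -0.23 (SE 0.083, edgeR adjusted p = 0.0292), and the groups did not overlap. This call was lost with DESeq2 (adjusted p = 0.216), with library size as the only scaling (edgeR adjusted p = 0.0502), without KO replicate 1, where the log2 fold change was -0.12 (edgeR adjusted p = 0.403), and without WT replicate 1 (edgeR adjusted p = 0.0723). Without KO replicate 2 its log2 fold change was -0.35. Ifnar2 had 32.5 and 35.1 CPM in KO libraries and 32.5 and 31.1 CPM in WT libraries, with no call (log2 fold change 0.09, SE 0.092, edgeR adjusted p = 0.478). Uncalled members such as Trim25 and Bst2 also had genotypes that did not overlap. For Ifnar2 the lower KO library and the higher WT library were nearly equal. With 2 libraries each, such separation does not set called members apart.

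Sensors of foreign nucleic acid and their regulators were lower in KO in 4 of 8 cases and higher in 0. Among all tested genes, 17.4% were lower and 18.3% higher. The median log2 fold change of the 8 was -0.34. Zbp1, which senses Z-form nucleic acid and can start necroptosis, had 114 and 107 CPM in KO libraries, against 170.2 and 167.1 CPM in WT libraries. Its log2 fold change was -0.61 (SE 0.050, edgeR adjusted p = 1.61e-10). The genotypes were far apart for Zbp1 beside the narrow spread within each. Ifih1, the gene of MDA5, which detects long double-stranded RNA, had 74.8 and 76.1 CPM in KO libraries, against 98.7 and 97.4 CPM in WT libraries (log2 fold change -0.38, SE 0.058, edgeR adjusted p = 7.63e-06). Ddx58, the gene of RIG-I, which detects RNA with a 5′ triphosphate, had 92.4 and 86.8 CPM in KO libraries, against 107 and 115 CPM in WT libraries (log2 fold change -0.31, SE 0.057, edgeR adjusted p = 1.01e-04). Both RNA helicases that signal through Mavs were thus lower in both KO libraries than in either WT library.

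Ddx60, a helicase related to antiviral sensing, was weakly expressed, with 24 and 31 estimated counts in KO libraries and 35 and 59 in WT libraries. These correspond to 2.10 and 2.83 CPM in KO libraries and 4.20 and 6.53 CPM in WT libraries, a log2 fold change of -1.13 (SE 0.288, edgeR adjusted p = 0.00305). The WT libraries differed among themselves for this gene, and the call was lost without WT replicate 2 (log2 fold change -0.77, edgeR adjusted p = 0.113) and with DESeq2 (adjusted p = 0.0634). Tlr3, the endosomal receptor of double-stranded RNA, had 6.31 and 8.67 CPM in KO libraries and 9.59 and 10.2 CPM in WT libraries, with no call (log2 fold change -0.40, edgeR adjusted p = 0.0858). Without KO replicate 2 it passed, at -0.65 (edgeR adjusted p = 0.0214). Dhx58, the helicase LGP2 that tunes the other sensors, the ubiquitin ligase Trim25, which acts on RIG-I, and Adar, which edits double-stranded RNA, were not called, with log2 fold changes of -0.21, 0.11 and -0.20. Their library values ran from 9.67 CPM for Dhx58 to 42.7 CPM for Trim25. The lowest edgeR adjusted p of these was 0.210, for Adar, of whose 100-base exon windows 11.8% also occur in other genes.

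Stat2 and Irf9 moved apart. Stat2 had 83.8 and 86.0 CPM in KO libraries, against 69.3 and 69.1 CPM in WT libraries, and was higher in KO (log2 fold change 0.29, SE 0.061, edgeR adjusted p = 4.07e-04). Irf9, the DNA-binding subunit, had 97.8 and 92.6 CPM in KO libraries, against 122.1 and 122.5 CPM in WT libraries, and was lower in KO (log2 fold change -0.36, SE 0.053, edgeR adjusted p = 4.86e-06). Neither gene had overlapping genotypes, and both calls were lost with an assumed BCV of 0.1. The annotated span of Irf9 overlaps that of Rnf31, and without strand reads of the 2 genes cannot be fully separated. The other interferon regulatory factors gave no call. Irf7, which amplifies the response, had 138.8 and 135.9 CPM in KO libraries and 143.2 and 132.2 CPM in WT libraries, with a log2 fold change of -0.0021 (SE 0.052, edgeR adjusted p = 0.981). The KO values lay inside the range of the WT values. Irf3, which relays the sensors' signal, had 44.3 and 46.8 CPM in KO libraries and 44.0 and 44.1 CPM in WT libraries (log2 fold change 0.05, SE 0.079). Irf1, a factor also induced by interferon γ, had 13.3 and 13.1 CPM in KO libraries and 13.9 and 13.1 CPM in WT libraries (log2 fold change -0.04, SE 0.144).

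**Figure D4:**
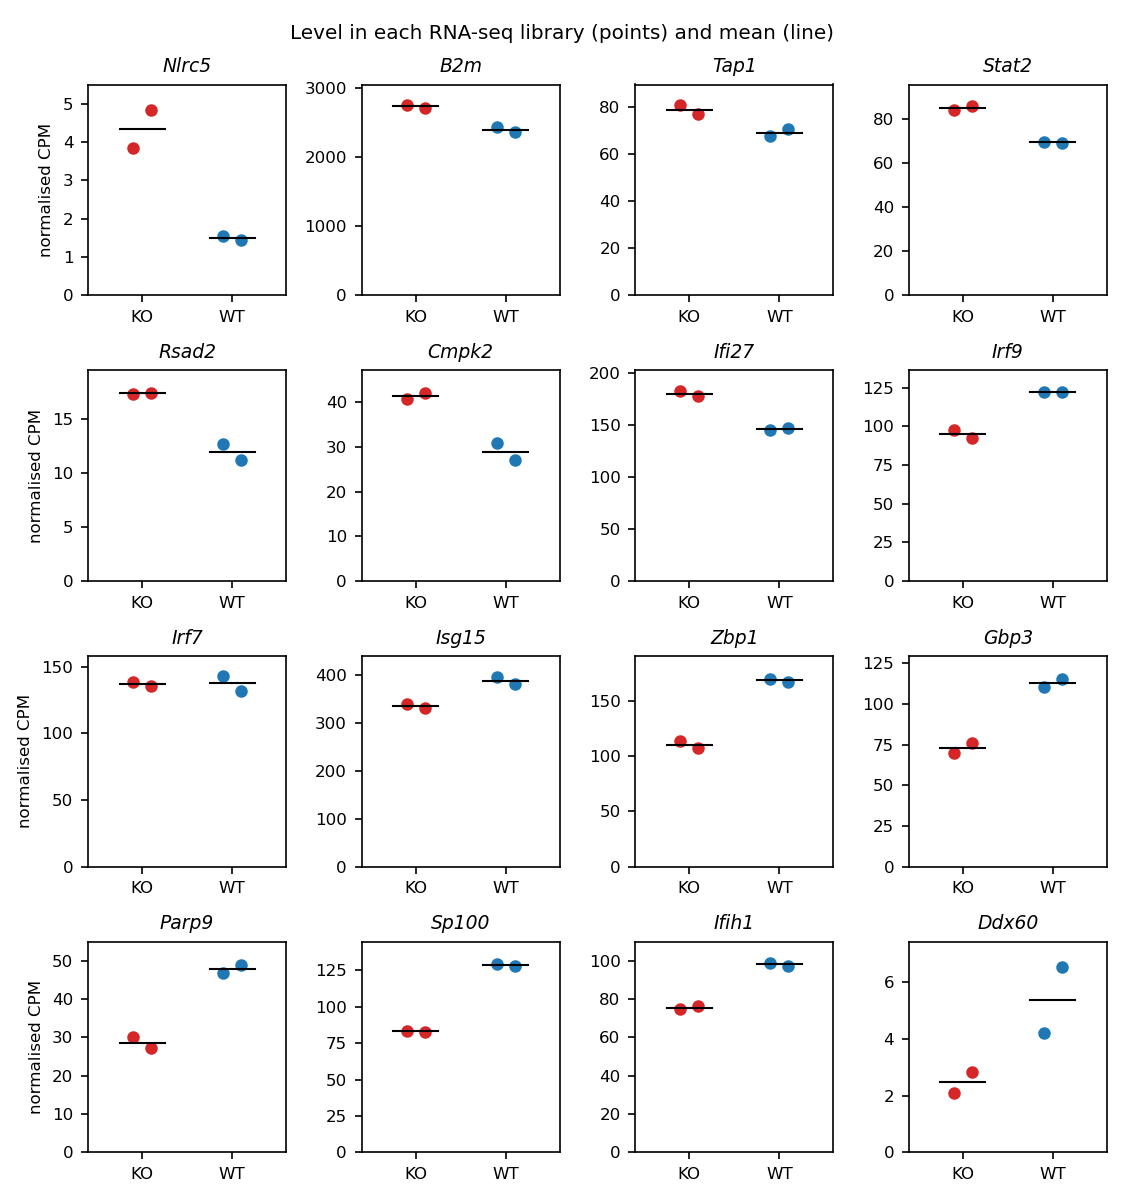
Normalised CPM of 16 members in each RNA library (points, KO left and WT right), with the mean of each genotype (line) and every y axis starting at 0. KO points lie above WT points for Nlrc5, B2m, Tap1, Stat2, Rsad2, Cmpk2 and Ifi27 and below them for Irf9, Isg15, Zbp1, Gbp3, Parp9, Sp100, Ifih1 and Ddx60, while for Irf7 they lie between.

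Antiviral effectors made up most of the set. Of 26 tested, 15 were lower in KO, 3 higher and 8 not called, against 17.4% lower and 18.3% higher among all tested genes. Their median log2 fold change was -0.19. Summed over all 27, they reached 3245 and 3178 CPM in KO libraries, against 3694 and 3692 CPM in WT libraries. Fibroblast markers were lower in KO as well, 7 of 8 with a median log2 fold change of -0.63, and whether this bears on the effectors was not tested.

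The clearest falls were in a nuclear body protein, an ADP-ribosyltransferase with its partner, and the guanylate-binding proteins. Sp100, a component of PML nuclear bodies that restrains viral genomes, had 83.5 and 82.8 CPM in KO libraries, against 129 and 128 CPM in WT libraries (log2 fold change -0.63, SE 0.053, edgeR adjusted p = 2.41e-10). Parp9 had 30.0 and 27.3 CPM in KO libraries, against 46.7 and 48.8 CPM in WT libraries, the lowest log2 fold change among effectors at -0.74 (SE 0.087, edgeR adjusted p = 1.25e-07). Dtx3l, the ubiquitin ligase that forms a complex with it, had 18.3 and 17.5 CPM in KO libraries, against 27.0 and 24.5 CPM in WT libraries (log2 fold change -0.52, SE 0.116, edgeR adjusted p = 8.34e-04). Parp9 and Dtx3l lie head to head on chromosome 16 and overlap over 682 bases, so their estimates are not fully separate. Parp14, in the same neighbourhood, had 15.3 and 16.0 CPM in KO libraries and 15.8 and 17.3 CPM in WT libraries, with no call (log2 fold change -0.09).

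All 3 guanylate-binding proteins of the set, GTPases that attack the membranes of intracellular pathogens, were lower in KO, against 17.4% of all tested genes. Their genes lie within 107.7 kb of chromosome 3. Gbp3 had 69.7 and 76.0 CPM in KO libraries, against 110.1 and 115.4 CPM in WT libraries (log2 fold change -0.63, SE 0.059, edgeR adjusted p = 1.91e-09). Gbp2 had 44.1 and 43.7 CPM in KO libraries, against 58.5 and 69.6 CPM in WT libraries (log2 fold change -0.55, SE 0.080, edgeR adjusted p = 3.87e-06). Gbp7 had 34.8 and 32.5 CPM in KO libraries, against 44.2 and 51.5 CPM in WT libraries (log2 fold change -0.51, SE 0.088, edgeR adjusted p = 4.75e-05). For each of the 3 the higher KO library stayed below the lower WT library, which also held for uncalled members such as Bst2. Up to 10.0% of the 100-base windows of these genes, in Gbp7, also occur in other genes. The family did not fall as a whole. Outside the set, Gbp5, beside them on chromosome 3, and Gbp9 were not called, with log2 fold changes of 0.04 and -0.18. Gbp6, with 64.5% of its windows shared, was lower, at -1.125.

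A further group fell by less than 0.4 on the log2 scale. Oasl2, a 2′-5′-oligoadenylate synthetase-like protein, had 164 and 165 CPM in KO libraries, against 220.1 and 212 CPM in WT libraries (log2 fold change -0.39, SE 0.046, edgeR adjusted p = 1.07e-07). Xaf1, which binds the caspase inhibitor XIAP, had 135.2 and 121.7 CPM in KO libraries, against 171.4 and 166.7 CPM in WT libraries (log2 fold change -0.39, SE 0.053, edgeR adjusted p = 9.77e-07). Ifi44 had 69.0 and 66.9 CPM in KO libraries, against 82.3 and 93.2 CPM in WT libraries (log2 fold change -0.37, SE 0.065, edgeR adjusted p = 5.65e-05). In each of these genes the genotypes stayed apart. Rtp4, a chaperone of membrane receptors, had 196.6 and 195.8 CPM in KO libraries, against 249.8 and 242.4 CPM in WT libraries (log2 fold change -0.33, SE 0.044, edgeR adjusted p = 1.08e-06), and its annotated span overlaps Masp1.

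Of the ISG15 system, the modifier and its protease were lower by similar amounts. Isg15 had 338 and 331 CPM in KO libraries, against 396 and 379 CPM in WT libraries (log2 fold change -0.21, SE 0.038, edgeR adjusted p = 8.73e-05). Usp18, which also restrains signalling at Ifnar2, had 460.3 and 446.0 CPM in KO libraries, against 522.4 and 532.0 CPM in WT libraries (log2 fold change -0.22, SE 0.035, edgeR adjusted p = 1.41e-05). Both genes were lower in each KO library than in each WT library. Herc6, the mouse ligase that attaches Isg15, had 17.9 and 19.9 CPM in KO libraries and 21.1 and 20.8 CPM in WT libraries, with no call (log2 fold change -0.15, edgeR adjusted p = 0.355), and 10.3% of its windows are shared.

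The oligoadenylate synthetases, which make the activator of RNase L, were uneven. Oas1a had 152.9 and 150.4 CPM in KO libraries, against 171.1 and 165.7 CPM in WT libraries (log2 fold change -0.15, SE 0.048, edgeR adjusted p = 0.0148), but 40.9% of its windows also occur in other genes and its value is uncertain. Its call was lost with DESeq2 (adjusted p = 0.109), without KO replicate 2 (edgeR adjusted p = 0.0854) and without WT replicate 1 (edgeR adjusted p = 0.109). Oas2, Oas3 and Oasl1, which in mice represses translation of Irf7, were not called. Library values ran from 6.57 to 9.29 CPM for Oas2 and from 24.8 to 26.2 CPM for Oasl1, with log2 fold changes of -0.19 and -0.06. Oas3 was near the detection limit, with 18 and 24 estimated counts in KO libraries and 10 and 10 in WT libraries. Its log2 fold change of 0.70 (SE 0.43, edgeR adjusted p = 0.209) was the only one above 0 among the 5 members of this family.

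The calls of Ifi35 and Samd9l, like those of Ifnar1, Ddx60, Oas1a, Rsad2 and Tap1, were lost with DESeq2. An assumed BCV of 0.1 lost 17 of the 28 calls. Among these were Ifih1, Ddx58, Isg15, Usp18, Oasl2, Xaf1, Rtp4, Ifi44 and Ifi27. Ifi35 had 202.3 and 196.7 CPM in KO libraries, against 223.4 and 213.6 CPM in WT libraries (log2 fold change -0.13, SE 0.045, edgeR adjusted p = 0.0257). It did not pass with DESeq2 (adjusted p = 0.125), or, by edgeR, with library size as the only scaling (adjusted p = 0.0569), without KO replicate 2 (adjusted p = 0.145) or without WT replicate 1 (adjusted p = 0.206). Samd9l, which halts translation in infected cells, had 109 and 127 CPM in KO libraries, against 128 and 142 CPM in WT libraries (log2 fold change -0.20, SE 0.061, edgeR adjusted p = 0.0118). For Samd9l the upper KO library nearly met the lower WT library. Its call was lost with DESeq2 (adjusted p = 0.0989), without KO replicate 1 (log2 fold change -0.10, edgeR adjusted p = 0.286) and without WT replicate 2 (-0.13, edgeR adjusted p = 0.136), and without KO replicate 2 the log2 fold change was -0.31. Eif2ak2, the double-stranded RNA kinase PKR, had 81.6 and 77.4 CPM in KO libraries and 88.6 and 87.6 CPM in WT libraries (log2 fold change -0.15, SE 0.059, edgeR adjusted p = 0.0522). It passed by edgeR with RLE size factors (adjusted p = 0.0440), among genes with at least 50 counts in 2 libraries (adjusted p = 0.0499) and with a replicate block (adjusted p = 0.0388). Bst2, at 739.1 and 706.5 CPM in KO libraries and 756.0 and 752.8 CPM in WT libraries, was not called in spite of its depth (log2 fold change -0.06, SE 0.031). Mx2, a relative of Mx1, was not called either, with 7.71 and 7.12 CPM in KO libraries and 8.99 and 7.19 CPM in WT libraries (log2 fold change -0.12).

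Against this direction, 3 effectors were higher in KO. Rsad2, or viperin, which converts CTP into a chain terminator of viral polymerases, had 17.4 and 17.4 CPM in KO libraries, against 12.7 and 11.2 CPM in WT libraries (log2 fold change 0.54, SE 0.141, edgeR adjusted p = 0.00335), a call lost with DESeq2 (adjusted p = 0.0797). Cmpk2, a nucleotide kinase of mitochondria, had 40.8 and 42.2 CPM in KO libraries, against 30.9 and 27.0 CPM in WT libraries (log2 fold change 0.52, SE 0.092, edgeR adjusted p = 5.67e-05). The 2 genes are divergent neighbours on chromosome 12, 12751 bases apart, and their log2 fold changes were close to each other. Ifi27, a small mitochondrial and nuclear membrane protein, had 182 and 177 CPM in KO libraries, against 145.2 and 146.4 CPM in WT libraries (log2 fold change 0.30, SE 0.048, edgeR adjusted p = 1.27e-05). Ifi27l2a, a related gene 1927 bases away that is not a member, had 65.8 and 59.8 CPM in KO libraries, against 35.4 and 34.2 CPM in WT libraries (log2 fold change 0.85, edgeR adjusted p = 1.87e-09).

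Antigen presentation members were higher in KO in 3 of 5 cases and lower in 0, against 18.3% higher and 17.4% lower among all tested genes. Their median log2 fold change was 0.19. Nlrc5, the transactivator of MHC class I genes, was weakly expressed, with 44 and 53 estimated counts in KO libraries and 13 and 13 in WT libraries. Its level was 3.86 and 4.84 CPM in KO libraries, against 1.56 and 1.44 CPM in WT libraries, so KO reached 288.5% of WT (log2 fold change 1.53, SE 0.328, edgeR adjusted p = 5.79e-04). Nlrc5 kept its call in each alternative fit in which it was tested. B2m, the class I light chain that Nlrc5 is known to induce, had 2751 and 2713 CPM in KO libraries, against 2434 and 2355 CPM in WT libraries (log2 fold change 0.19, SE 0.022, edgeR adjusted p = 1.30e-07). Its groups were well apart, yet with an assumed BCV of 0.1 the call was lost. Tap1, a subunit of the peptide transporter, had 80.9 and 76.99 CPM in KO libraries, against 67.6 and 70.9 CPM in WT libraries (log2 fold change 0.19, SE 0.063, edgeR adjusted p = 0.0210). Its call was lost with DESeq2 (adjusted p = 0.227), without KO replicate 1 (edgeR adjusted p = 0.203) and without WT replicate 1 (edgeR adjusted p = 0.130).

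The immunoproteasome subunits gave no call. Psmb8 had 57.0 and 55.9 CPM in KO libraries and 59.2 and 53.1 CPM in WT libraries (log2 fold change 0.01, SE 0.073). Psmb9, which overlaps Tap1 over 212 bases, had 4.08 and 4.42 CPM in KO libraries and 2.67 and 3.61 CPM in WT libraries (log2 fold change 0.43, SE 0.275, edgeR adjusted p = 0.239). Psmb8, Psmb9 and Tap1 lie within 19.5 kb of chromosome 17. Among 16 tested antigen presentation genes outside the set, 5 were higher and 4 lower in KO, against 18.3% higher and 17.4% lower among all tested genes. Their median log2 fold change was 0.0010. The MHC class I heavy chain H2-D1 had 1472 and 1439 CPM in KO libraries, against 912.5 and 892.3 CPM in WT libraries (log2 fold change 0.69, edgeR adjusted p = 1.24e-17). H2-K1 had 438.2 and 442.2 CPM in KO libraries, against 311.4 and 311.3 CPM in WT libraries (log2 fold change 0.50, edgeR adjusted p = 1.75e-11), and H2-Q7, with 12.0% of its windows shared, had a log2 fold change of 1.99. Psme2, a proteasome activator subunit with 18.4% of its windows shared, the immunoproteasome subunit Psmb10 and the chaperone Pdia3 were lower, with log2 fold changes of -0.36, -0.50 and -0.06. The class I heavy chain H2-T23 was lower as well, with 51.4 and 50.8 CPM in KO libraries, against 60.9 and 56.9 CPM in WT libraries (log2 fold change -0.20, edgeR adjusted p = 0.0280), so not all heavy chains rose. Class I heavy chains are close copies of each other and differ between mouse strains, so their estimates are uncertain. Of the 11 tested macrophage and leukocyte markers, 7 were higher in KO and 4 not called, with a median log2 fold change of 0.78, and their part in the rises of Nlrc5, B2m, Tap1 and the class I genes was not tested.

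Other pathway genes were counted by list, beside 18.3% higher and 17.4% lower among all tested genes (35.7% together). Of 12 tested receptor and JAK-STAT genes outside the set, 4 were lower and 0 higher in KO. The share called, 33.3%, was near that of all tested genes. Among the lower ones were Jak1, the kinase bound to Ifnar2, at -0.33 and Stat3 at -0.27 on the log2 scale. Jak1 had 189.4 and 200.5 CPM in KO libraries, against 239.4 and 251.0 CPM in WT libraries (edgeR adjusted p = 1.77e-06). Of 12 sensor adaptors and kinases, 1 was higher and 0 lower, namely Tlr4, the receptor of lipopolysaccharide, with 12.4 and 12.5 CPM in KO libraries, against 5.64 and 8.52 CPM in WT libraries. Of 7 further regulatory factors and co-regulators, Irf2bpl was higher, at 0.39, and Irf2bp2 and Nmi were lower, at -0.48 and -0.42.

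Of 56 other interferon-stimulated genes tested, 25 were lower and 7 higher in KO, against 17.4% lower and 18.3% higher among all tested genes. The median log2 fold change was -0.18, close to that of the members. Ifitm3, which blocks viral fusion, had 1359 and 1322 CPM in KO libraries, against 1672 and 1592 CPM in WT libraries (log2 fold change -0.28, edgeR adjusted p = 2.74e-09). Its relative Ifitm2, with 34.9% of its windows shared, and the ATPase Tor3a were lower by log2 fold changes of -0.40 and -0.41. Ifi27l2a, the nuclear body organiser Pml and the RNA helicase Mov10 were higher, at 0.85, 0.52 and 0.66. Pml was thus higher in KO and Sp100, which shares its nuclear bodies, lower.

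**Figure D5:**
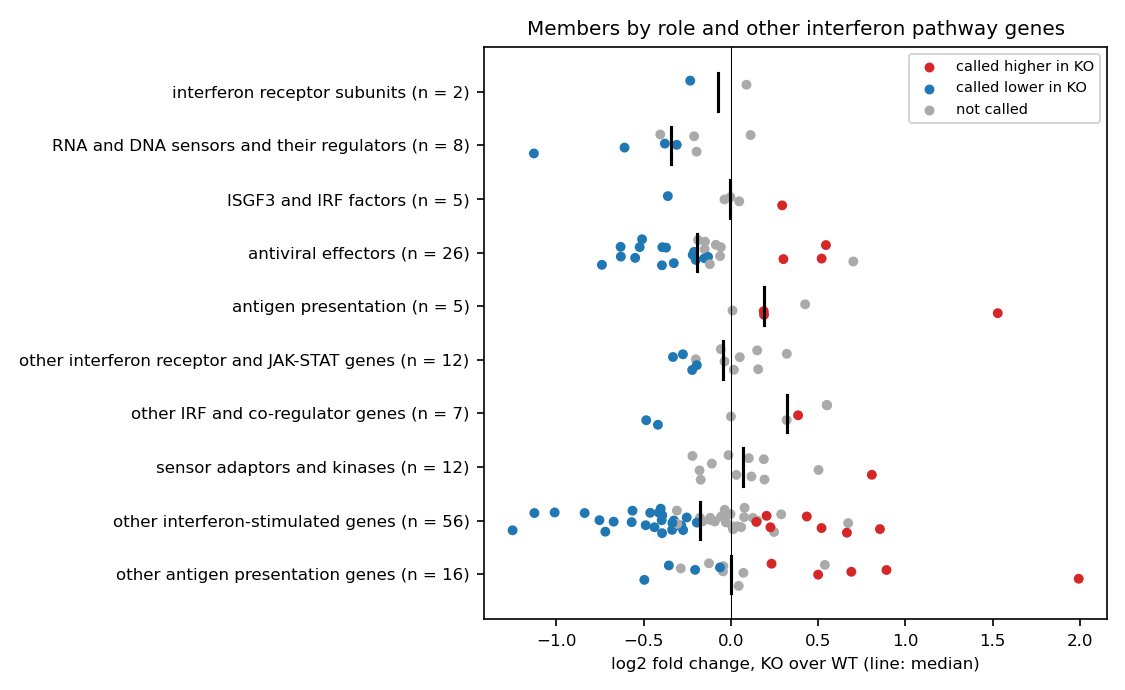
Log2 fold change of KO over WT (x axis) for each tested gene, by role for members (upper 5 rows) and by list for other pathway genes (lower 5 rows), with the median of each row as a vertical line. Blue genes were lower and red genes higher in KO at an adjusted p under 0.05 by edgeR. Medians of sensors with their regulators, effectors and other interferon-stimulated genes lie left of 0, and that of antigen presentation members right of it.

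Chromatin at the starts of 45 of the 47 members was open in both ATAC-seq libraries. With 1 library a genotype there was no replicate check, and the authors' peak folds were read only within each list. A peak lay within 500 bases of the start of 47 of 47 members in the KO list and of 45 of 47 in the WT list, against 92.4% of 12185 tested genes in the KO list and 92.4% in the WT list. The starts without a WT peak were those of Mx1 and Ifi44. Ifi44 had a weak peak in the KO list, with a fold of 3.40 over background at the 5.7th percentile of that list. The shares are near the background and single out no member. The highest fold at a start in the KO list was 35.3, in the peak shared by Psmb9 and Tap1, and in the WT list 34.9, at Irf1. Isg15, in spite of its high RNA level, stood at the 68.2nd percentile in the KO list and at the 75.4th in the WT list. The summit of its peak lay at -58 from the start annotated in GENCODE in the KO list and at -102 in the WT list.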

How the data were processed

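RNA-seq was analysed in 2 Acta2 KO and 2 WT libraries and ATAC-seq in 1 of each, grouped by the genotype in the labels. The authors deposited estimated counts per gene. Per the labels' protocols, RNA libraries came from a low-input kit, with no word on strand, were read as 150 bp pairs, trimmed (Trim Galore 0.6) and aligned to mm10 by STAR 2.5.3a. How reads were assigned to genes is not given in the sources used. The labels also speak of TPM values, but the deposited columns sum to 8429166 to 11370115 and 10.8 to 12.2% of values are not whole within 0.001, so they were used as estimated counts and rounded. Such counts divide reads among similar genes by a model, so shared sequence makes a gene uncertain. A gene's shared sequence is given as the percent of its 100-base exon windows that also occur in another gene of GENCODE M21.

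For ATAC-seq, Bowtie2 2.3 aligned the reads and MACS2 was run on every library by itself, per the labels' protocols. The authors' deposited peak lists, of 121748 peaks in KO and 123935 in WT, hold an integer score, a fold enrichment, and p- and q-values as −log10. Depth of these libraries is unknown.

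The test across genes was that of edgeR 4.0.16 (R 4.3.3), with filterByExpr at a minimum count of 10, TMM scaling, genotype alone in a quasi-likelihood fit, and p-values adjusted by Benjamini-Hochberg over 12192 genes, called under 0.05. SEs were obtained as the size of the log2 fold change over the root of F. Library sizes behind CPM were scaled by TMM. The test was also checked on simulated counts. With a BCV of 0.03 it recovered 46% of 1.2-fold, 70% of 1.5-fold and 96% of 2-fold changes. With a BCV of 0.2 it recovered 0% of 1.2-fold, 2% of 1.5-fold and 28% of 2-fold changes. Alternatives were DESeq2 1.42.0, RLE or no scaling factors, other low-count filters, assumed BCVs of 0.1 and 0.2, a replicate block, leaving out each library, and leaving out members that share sequence or overlap, the last chosen after seeing the data. Over genes, the chi-square per degree of freedom came to 1.95 between KO libraries, 1.75 between WT libraries and 16.3 to 16.9 between genotypes, so all libraries were kept.

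Of 25746 genes in the table, 25458 had the coordinates of GENCODE M21, 46 of the 47 members among them. Coordinates are 1-based. Members and gene lists were chosen with earlier results of these data known. Every library's values are printed for all receptor, ISGF3, IRF and antigen presentation members, for called members with the largest changes in each role, and for members whose call changed under an alternative, and pathway genes outside the set are named where called with the 3 smallest p in a list and direction, except for 1 gene that is not reported here. Other genes whose values are given are Ifi27l2a as a neighbour, some cell type markers, and uncalled members named beside their families. H2-T23, Gbp5, Gbp6 and Gbp9 were named after their values were seen.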

Additional observations from a re-analysis of the deposited data

How the results depend on the processing

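Of the 28 called members, 0 changed sign under any alternative. DESeq2 kept 21 of the 28 calls, RLE size factors 28, library size alone 26, no low-count filter 28, a minimum of 50 counts in 2 libraries 26 of the 26 refitted, an assumed BCV of 0.1 kept 11 and of 0.2 kept 1. Leaving out a library kept 24 to 26. Counts of members and genes depended most on the assumed spread: with a BCV of 0.1, 3 members were higher and 8 lower, and with 0.2, 1 was higher (Nlrc5) and 0 lower. Over all genes, 962 were higher and 1096 lower with DESeq2, 1027 and 753 with a BCV of 0.1, and 223 and 175 with 0.2, against 2231 and 2121 as reported. Leaving out each library in turn gave 6 to 7 members higher and 18 to 20 lower, and 1704 to 1906 genes higher and 1671 to 1768 lower over all. In those fits 1 genotype holds a lone library, assumed to vary like the other genotype.

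The median log2 fold change of the members was -0.15 with library size as the only scaling, which also moved the median of all genes to 0.0225, -0.18 without a low-count filter, -0.19 with at least 50 counts in 2 libraries, and -0.188 without the 7 members that share sequence or overlap another member. It ran from -0.176 to -0.141 when each library was left out. The stricter response element was found in 9 members. Uncalled members with values near 0 changed sign: Irf1 at 0.0004 without WT replicate 1 (range when each library was left out -0.0793 to 0.0004), Irf7 at 0.019 with library size alone, 0.0013 without a low-count filter, 0.0144 without KO replicate 2 and 0.0532 without WT replicate 1 (range -0.0622 to 0.0532), Mx2 at 0.0429 without WT replicate 1 (range -0.2797 to 0.0429), and Psmb8 at -0.0085 without KO replicate 1 and -0.0717 without WT replicate 2 (range -0.0717 to 0.0864). The cause of these changes was not tested.

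The replicate numbers did not pair the samples: deviations of same-numbered libraries had a correlation of 0.000403 over genes. A fit with the replicate number as a block called 2256 genes higher and 2152 lower, and 7 members higher and 22 lower, with Eif2ak2 added. Peaks lay at the starts of 46 to 47 members in the KO list and of 45 to 46 in the WT list under other windows or a −log10 q-value of at least 5. Precision is limited by 2 RNA libraries a genotype and by low counts for Mx1, Oas3, Ddx60 and Nlrc5.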
